A study of Mus musculus with 16 samples.

Results

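The 4 arrays described here measured the late response of activated mouse mast cells to an antibody against TIM-3. Mast cells that had been activated by IgE and antigen and exposed to anti-TIM-3 for 16 h were compared on each array with activated cells exposed to control goat IgG for 16 h. These arrays were taken by their labels from a series of 16 arrays of 2 channels each, which hold 4 groups of 4 arrays. In all groups the cells were mast cells grown from bone marrow in medium with 5 ng/ml IL-3, 40 ng/ml SCF and 10% serum for more than 4 weeks, to a purity above 90% by FcεRIα and c-kit staining. The antibody was a goat agonist against mouse TIM-3 at 15 ug/ml. Activation meant 5 ug/ml IgE against DNP for 1 h, followed by 100 ng/ml of the antigen DNP-HSA given together with anti-TIM-3 or IgG. The other groups used for comparison were resting cells, without IgE or antigen, given anti-TIM-3 or IgG for 16 h, and activated cells given them for 2 h. The remaining group was resting cells given them for 2 h. No difference to it was tested, but its 4 arrays entered the shared estimate of the spread and the choice of probes. Ratios correlated at 0.01 to 0.71 between its arrays. Mouse strain and the number of marrows are not given in the sources used here. The labels do not say that the replicate arrays came from separate cultures, so p-values measure only how far these samples vary, and that variation may be technical.

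Havcr2 encodes TIM-3, a receptor at the cell surface that is best known as a brake on exhausted T cells, and it is also carried by mast cells and myeloid cells. In a mast cell, antigen cross-links IgE bound to the high-affinity receptor FcεRI. Stored granules with histamine and proteases are released first, eicosanoids are then made from membrane lipid, and cytokine and chemokine genes are transcribed over the following hours.

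RNA of anti-TIM-3 cells always carried the dye Cy5 and RNA of IgG cells Cy3. No dyes were swapped, so within a group a gene's preference for one dye and its response to the antibody cannot be told apart. Such a preference drops out of a difference between groups if it is the same on every array, so the ratio in activated cells at 16 h is also set against the ratios in resting cells at 16 h and in activated cells at 2 h. Both differences use the same 4 activated 16 h arrays. Values below are log2 ratios of anti-TIM-3 over IgG, and a call means a limma adjusted p under 0.05 over all 17101 genes tested. On the 4 arrays, 54.6% to 66.0% of spots were well above background in Cy5 and 54.3% to 59.0% in Cy3, and 0 were saturated. The ratios correlated at 0.61 to 0.84 between these arrays, at 0.14 to 0.54 with resting cells at 16 h and at 0.18 to 0.43 with activated cells at 2 h, as a description over genes that share dyes and probes. The number of arrays limits the precision.

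Of the genes tested, 2887 rose and 2265 fell with anti-TIM-3, which together are 30.1% of all genes (16.9% higher and 13.2% lower). Counts of list members that rose or fell are to be read against these shares, unless another scaling is named. Most changes were small. Among called genes 96.1% changed less than 1.5-fold. At least 2-fold, 30 genes rose (0.175%) and 4 fell (0.0234%). The response also differed from that of resting cells in 1461 genes (8.54%): the ratio of activated cells was above it for 801 (4.68%) and below it for 660 (3.86%). Between activated cells at 16 h and at 2 h it differed in 2938 genes (17.2%), with 1562 higher (9.13%) and 1376 lower at 16 h (8.05%). Of the 30 genes that rose at least 2-fold, 29 were also higher than in resting cells and 25 higher than at 2 h, and all 4 that fell as far were lower than in both.

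The largest rises included an opioid peptide gene, 3 chemokine genes and genes of other secreted and surface proteins. Penk encodes proenkephalin, the precursor of the enkephalin opioid peptides. Its log2 ratios were 2.56, 2.72, 2.46 and 2.58 on the 4 arrays of activated cells at 16 h, a 5.97-fold rise (mean 2.58 ± 0.11 SD, n = 4, limma adjusted p = 4.58e-12). In resting cells at 16 h the 4 Penk ratios lay between -0.10 and 0.12, and in activated cells at 2 h between 0.84 and 1.24, so the groups did not overlap. The Penk ratio was 2.56 above that in resting cells (SE 0.12, limma adjusted p = 1.78e-09) and 1.53 above that at 2 h (SE 0.12, limma adjusted p = 1.72e-07). On the slides that hold both groups the same differences were 2.64 and 2.59 to resting cells and 1.41 to activated cells at 2 h. The mean log2 intensity of Penk was 12.19 in anti-TIM-3 cells and 9.62 in IgG cells when activated for 16 h, against 7.02 in anti-TIM-3 cells and 7 in IgG cells when resting. A second Penk probe gave a smaller mean ratio of 1.21.

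Plet1, a surface glycoprotein held by a lipid anchor, had ratios of 2.58, 1.82, 2.57 and 2.54 (5.19-fold, limma adjusted p = 1.14e-11). Neither comparison group shared the rise: the mean ratio was -0.07 in resting cells and -0.28 in activated cells at 2 h. The Plet1 signal of resting cells was well above background on 3 arrays in Cy5 and 2 in Cy3, and a second probe gave a mean ratio of 0.59. Ccdc184, named for a coiled-coil domain, had ratios of 2.21, 2.33, 2.00 and 2.07 (4.45-fold, limma adjusted p = 2.34e-13), against a mean of 0.09 at 2 h. In resting cells Ccdc184 was not well above background in either channel, so its difference of 2.12 to resting cells rests on unmeasured levels there. Igfbp5, which binds insulin-like growth factors, had ratios of 2.45, 1.93, 1.88 and 2.02 (4.19-fold, limma adjusted p = 2.02e-10). Igfbp5 was bright in every group, and its IgG level was 14.05 in activated cells and 14.50 in resting cells at 16 h on the log2 scale. Activated cells given anti-TIM-3 for 16 h stood above these, at 16.12. A second Igfbp5 probe gave a mean ratio of 1.20.

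Chemokines draw leukocytes along a gradient, and the genes that rose most encode attractants of T cells and eosinophils. Ccl17, a ligand of CCR4 on T cells, had ratios of 2.22, 1.75, 1.63 and 1.63 (3.51-fold, limma adjusted p = 1.33e-10), against means of 0.04 in resting cells and 0.43 in activated cells at 2 h. Ccl22, the other CCR4 ligand, had ratios of 0.90, 0.27, 0.49 and 0.41 (1.43-fold, limma adjusted p = 2.72e-05). Ccl24, an eosinophil attractant that acts on CCR3, had ratios of 1.00, 2.05, 1.14 and 0.99 (2.45-fold, limma adjusted p = 9.07e-07), and the second array stood well above the other 3. Ccl1, a ligand of CCR8, had ratios of 1.84, 1.43, 1.75 and 1.56 (3.12-fold, limma adjusted p = 8.01e-09). Unlike Ccl17, Ccl1 already had a mean ratio of 1.25 at 2 h, and the difference between the times missed the threshold (0.39, SE 0.15, limma adjusted p = 0.0841). It passed with Agilent's processed signals (1.07, adjusted p = 0.00109), with a smaller background offset (0.72, adjusted p = 0.00413) and without the first array of activated cells at 2 h (0.51, adjusted p = 0.0246). The Ccl1 signal was lower at the later time: the mean log2 intensity was 9.02 in anti-TIM-3 cells and 7.38 in IgG cells at 16 h, against 15.17 in anti-TIM-3 cells and 13.92 in IgG cells at 2 h.

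The Ccl17 promoter is shown because Ccl17 is the chemokine that rose most and the only one of the largest rises, among the 13 with a window, that holds a STAT-type motif. Capitals mark that motif (GAS, TTCNNNGAA, starting 99 bases before the gene's start) and an NFAT motif (TTTCCA, here on the other strand, starting 149 bases before). Motifs were searched on both strands of RefSeq windows of GRCm38.p6, 250 bases before to 50 after each gene's start.
Ccl17 promoter, chr8:94810203-94810502 (plus strand): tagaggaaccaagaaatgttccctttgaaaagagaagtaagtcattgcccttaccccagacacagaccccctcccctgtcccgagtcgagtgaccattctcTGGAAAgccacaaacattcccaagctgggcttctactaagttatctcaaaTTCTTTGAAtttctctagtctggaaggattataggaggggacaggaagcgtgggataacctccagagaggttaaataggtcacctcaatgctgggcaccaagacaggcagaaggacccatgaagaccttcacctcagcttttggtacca
Of the 15 largest rises 13 had such a window, and 5 of them (38.5%) held the NFAT letters, against 21.4% of all 32851 promoters. The share was similar among the 15 largest falls, where 4 of 11 windows (36.4%) held them. Among the 13 rises GAS letters stood in 1 (7.69%), against 8.3% of all. Neither AP-1 (TGACTCA) nor CRE letters (TGACGTCA) stood in any of the 13, with shares of 5.2% and 1.79% over all promoters. These are matches of letters, not measured binding.

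The other large rises fell into several roles. Prss12, the extracellular serine protease neurotrypsin, had ratios of 1.76, 1.77, 1.41 and 1.70 (3.16-fold, limma adjusted p = 5.07e-12). Wnt9a, a secreted Wnt ligand, averaged 1.49, though its second probe gave 0.08, and the mean of both probes was 0.78. Eomes, a transcription factor of cytotoxic lymphocytes, and Tle1, a corepressor of the Groucho family, averaged 1.42 and 1.24. Snap47, a SNARE protein, averaged 1.42, and Cnga1, a subunit of the cyclic GMP-gated channel of rod photoreceptors, averaged 1.39. Hkdc1, which has hexokinase domains, and Entpd1, the surface enzyme CD39 that breaks down extracellular ATP, averaged 1.22 each. All 15 rises were higher than in resting cells, and all but Ccl1 were higher than at 2 h.

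**Figure D1:**
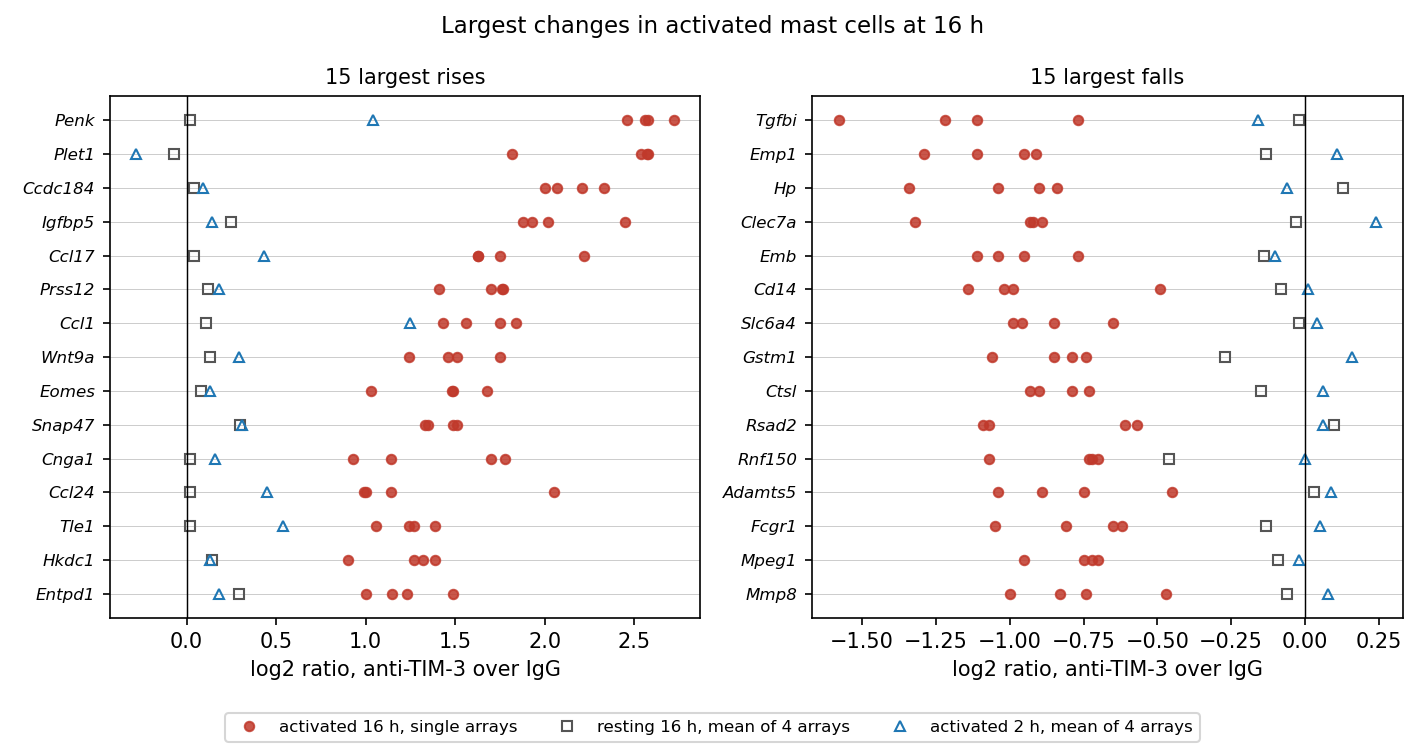
Log2 ratios of anti-TIM-3 over IgG (horizontal axes) for the 15 largest rises and the 15 largest falls in activated cells at 16 h. Red points are the 4 arrays, grey squares and blue triangles are means of 4 arrays of resting cells at 16 h and of activated cells at 2 h. All 4 Penk points lie above 2.4, and only Penk and Ccl1 had a mean ratio above 1 at 2 h.

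The largest falls were smaller than the largest rises. Tgfbi, a matrix adhesion protein induced by TGF-beta, had ratios of -1.58, -1.22, -0.77 and -1.11 (2.25-fold lower, limma adjusted p = 8.88e-08). Emp1, a tetraspan membrane protein, had ratios of -1.29, -1.11, -0.95 and -0.91 (2.09-fold lower, limma adjusted p = 6.51e-08). Hp, which encodes the haemoglobin-binding protein haptoglobin, had ratios of -1.34, -0.84, -0.90 and -1.04 (2.04-fold lower, limma adjusted p = 3.59e-08). For each of these genes the mean ratio in resting cells and in activated cells at 2 h lay between -0.16 and 0.13. Without the first array of activated cells at 16 h only 1 gene fell at least 2-fold in place of 4.

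Slc6a4, the serotonin transporter, is of interest in mast cells because they store and take up serotonin. Its ratios were -0.99, -0.96, -0.65 and -0.85 (1.82-fold lower, limma adjusted p = 8.87e-10), against -0.08 to 0.05 in resting cells and 0 to 0.07 in activated cells at 2 h. Emb, the membrane glycoprotein embigin, averaged -0.97, the detoxifying transferase gene Gstm1 -0.86 and the lysosomal protease gene Ctsl -0.84. Adamts5, a protease that cuts aggrecan, averaged -0.79, and another probe of it gave -0.15. Rnf150, a RING finger protein, averaged -0.81 with -0.11 on another probe, and it is the one fall among the 15 that did not differ from resting cells by the test (mean there -0.46, limma adjusted p = 0.348). Without the first array its difference to 2 h did not pass either (-0.72, adjusted p = 0.0537).

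**Figure D2:**
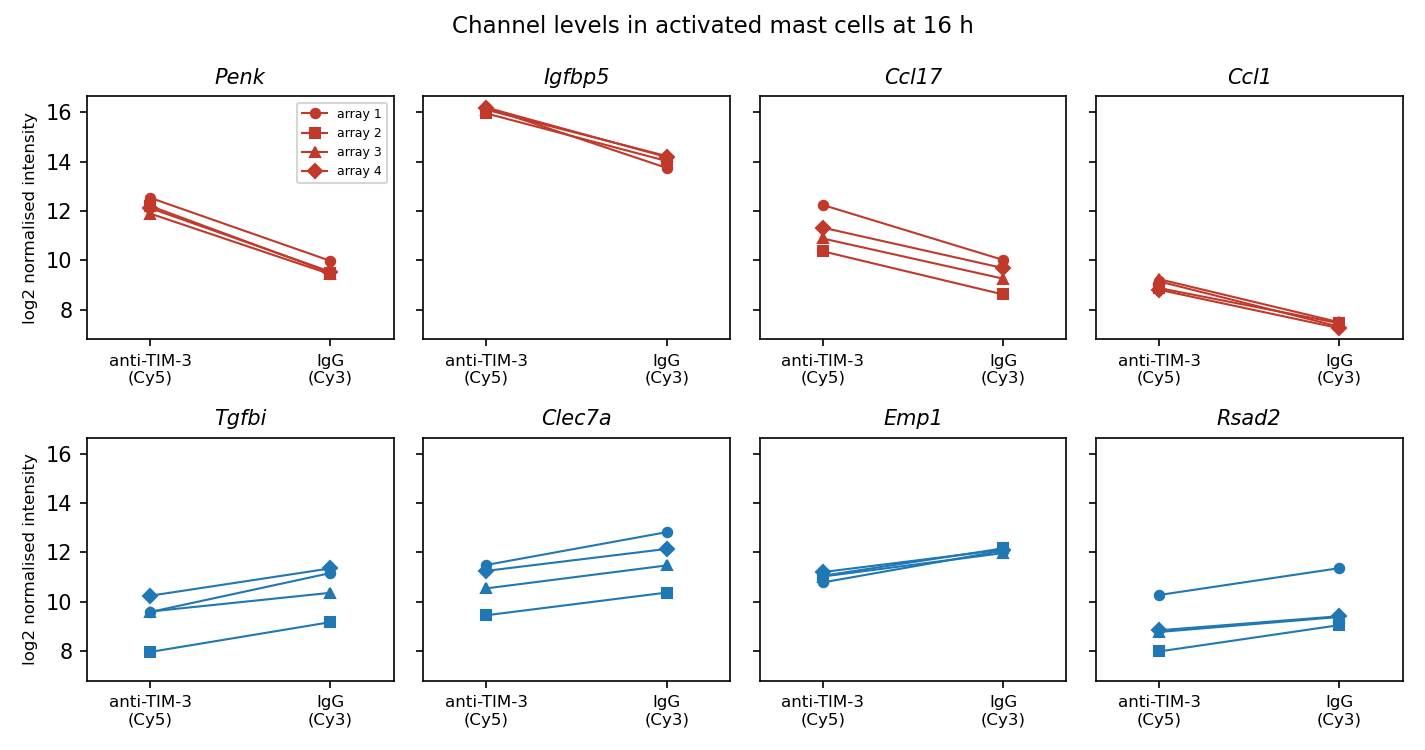
Normalised log2 intensity (vertical axis) of 8 genes in the anti-TIM-3 (Cy5) and IgG (Cy3) channels of the 4 arrays of activated cells at 16 h, with 1 line per array. Every line of Penk, Igfbp5, Ccl17 and Ccl1 lies higher on the anti-TIM-3 side and every line of Tgfbi, Clec7a, Emp1 and Rsad2 lower; levels are not comparable between genes. IgG levels of Clec7a ran from 10.37 to 12.82 between arrays while its ratio stayed between -1.32 and -0.89.

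Genes that mark macrophages and dendritic cells fell with anti-TIM-3. Of 27 measured, 19 fell and 2 rose, with a median ratio of -0.36, where 13.2% of all genes fell and their median was 0.01. Clec7a, the beta-glucan receptor dectin-1, had ratios of -1.32, -0.92, -0.93 and -0.89 (2.02-fold lower, limma adjusted p = 5.8e-09). Cd14, the co-receptor for bacterial endotoxin, had ratios of -1.02, -0.49, -0.99 and -1.14 (1.88-fold lower, limma adjusted p = 1.56e-07). The high-affinity IgG receptor gene Fcgr1 and Mpeg1, which encodes a pore-forming protein of phagocytes, averaged -0.78 each. Lysozyme genes fell together, Lyz1 by 0.73 and Lyz2 by 0.70. Against the direction of the list, Itgax, the integrin chain CD11c, rose (0.39, 0.60, 0.46 and 0.51, 1.4-fold, limma adjusted p = 1.78e-07).

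The median of the same list was -0.02 in resting cells and 0.02 in activated cells at 2 h. The ratio in activated cells at 16 h was lower than in resting cells for 16 of the 27 genes and higher for 2, and lower than at 2 h for 18 and higher for 2. Lyz2 had a difference to resting cells of -1.01 (SE 0.08, limma adjusted p = 3.13e-07), and its resting ratios were 0.03 to 0.42. Within slides the median difference of the list was -0.34 and -0.39 to resting cells and -0.29 to activated cells at 2 h.

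Most of these markers were measured well above background. Of the 27, 25 were well above background in the IgG channel of all 4 arrays, and C1qa was not measured. Their summed intensity was 36000 to 100000 in anti-TIM-3 cells and 46300 to 141000 in IgG cells over the 4 arrays. In resting cells the sums were 65800 to 182000 with anti-TIM-3 and 64400 to 167000 with IgG, and in activated cells at 2 h 49500 to 126000 with anti-TIM-3 and 46500 to 120000 with IgG. The 12 mast cell markers summed to 441000 to 717000 in anti-TIM-3 cells and 314000 to 495000 in IgG cells. Their sums were also higher with anti-TIM-3 in the comparison groups. In resting cells they were 568000 to 766000 with anti-TIM-3 and 384000 to 465000 with IgG. At 2 h they were 536000 to 545000 with anti-TIM-3 and 405000 to 455000 with IgG. Of the 12, 8 rose and 2 fell (median 0.14, and 0.30 in resting cells at 16 h). Against resting cells 1 had a higher ratio and 3 a lower one. Neutrophil markers were dim, with 10 of 16 measured and 4 well above background on all IgG channels (Camp, Elane, Lcn2, Ltf, Ngp and Retnlg were not measured). They summed to 1360 to 1670 in anti-TIM-3 cells and 1650 to 2460 in IgG cells. Of those 10, 3 fell: the collagenase gene Mmp8 (-0.76), the myeloperoxidase gene Mpo (-0.60) and Fpr2 (-0.25), which was well above background on 1 array in Cy5 and 2 in Cy3. Erythroid and megakaryocyte markers fell in 3 of 7, the platelet chemokine gene Ppbp by 0.64. In cultures measured in bulk, fewer cells of a type and less RNA per cell cannot be told apart, and the part that other cell types have in these falls was not tested.

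Many interferon response genes fell too. These genes are switched on when interferon binds its receptor, and many encode antiviral proteins. Of 27 measured, 18 fell and 0 rose, with a median of -0.26, against the 13.2% of all genes that fell. Rsad2, the antiviral enzyme viperin, had ratios of -1.09, -1.07, -0.61 and -0.57 (1.79-fold lower, limma adjusted p = 2.69e-07). Ifit1, which binds foreign RNA, had ratios of -0.89, -1.11, -0.53 and -0.43 (1.67-fold lower, limma adjusted p = 1.66e-06). Its relative Ifit3 had ratios of -1.15, -0.50, -0.69 and -0.49 (1.63-fold lower, limma adjusted p = 5.78e-05). The interferon regulatory factor gene Irf7 averaged -0.71, Oasl2 -0.65 and the deconjugating protease gene Usp18, a feedback inhibitor of interferon signalling, -0.49.

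The list median was -0.36, -0.27, -0.27 and -0.21 on the 4 arrays, and the larger falls of Rsad2 and Ifit1 were on the first 2. It was 0.05 in resting cells and 0.03 in activated cells at 2 h. Against resting cells, 14 of the 27 were lower and 0 higher, and against 2 h, 11 were lower and 0 higher. Within slides the median difference was -0.41 and -0.29 to resting cells and -0.25 to 2 h. With the ratios centred on the median of the genes tested in place of loess, 14 fell and 6 rose (median -0.16). That centring called 6065 of all 17101 genes higher and 6531 lower. Counts of list members with centring, here and below, are to be read against these numbers. The macrophage markers described above fell on the same arrays (19 of 27, median -0.36), and their part in the fall of these genes was not tested.

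The promoters of 3 interferon genes that fell are shown because they carry the element through which interferon acts. Capitals mark that element (ISRE, TTTCNNTTTC), which starts 120 bases before the start of Rsad2, 104 and 85 before Ifit1, and 156 and 122 before Ifit3.
Rsad2 promoter, chr12:26456403-26456702 (minus strand): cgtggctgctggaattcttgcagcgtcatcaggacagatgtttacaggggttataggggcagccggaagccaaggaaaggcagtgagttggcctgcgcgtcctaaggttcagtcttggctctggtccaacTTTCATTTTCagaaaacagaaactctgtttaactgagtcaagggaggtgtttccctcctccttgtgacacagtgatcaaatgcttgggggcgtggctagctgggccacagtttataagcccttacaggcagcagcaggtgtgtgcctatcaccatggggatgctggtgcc
Ifit1 promoter, chr19:34640639-34640938 (plus strand): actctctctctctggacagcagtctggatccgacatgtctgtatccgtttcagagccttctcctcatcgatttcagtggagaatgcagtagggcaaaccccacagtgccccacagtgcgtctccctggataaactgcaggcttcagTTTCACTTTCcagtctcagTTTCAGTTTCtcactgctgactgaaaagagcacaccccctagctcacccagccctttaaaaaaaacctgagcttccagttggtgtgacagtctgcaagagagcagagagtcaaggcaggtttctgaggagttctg
Ifit3 promoter, chr19:34583279-34583578 (plus strand): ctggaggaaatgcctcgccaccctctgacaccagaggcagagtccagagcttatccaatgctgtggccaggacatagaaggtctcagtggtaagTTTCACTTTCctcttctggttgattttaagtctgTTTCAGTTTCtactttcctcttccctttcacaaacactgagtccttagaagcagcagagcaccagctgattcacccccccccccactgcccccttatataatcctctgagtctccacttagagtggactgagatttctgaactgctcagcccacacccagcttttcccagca
Of 21 interferon genes with a window, 12 held these letters (57.1%), against 3.44% of all promoters. Among the 13 of them that fell it was 7 (53.8%). The ISRE was chosen for the search after the values had been seen.

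**Figure D3:**
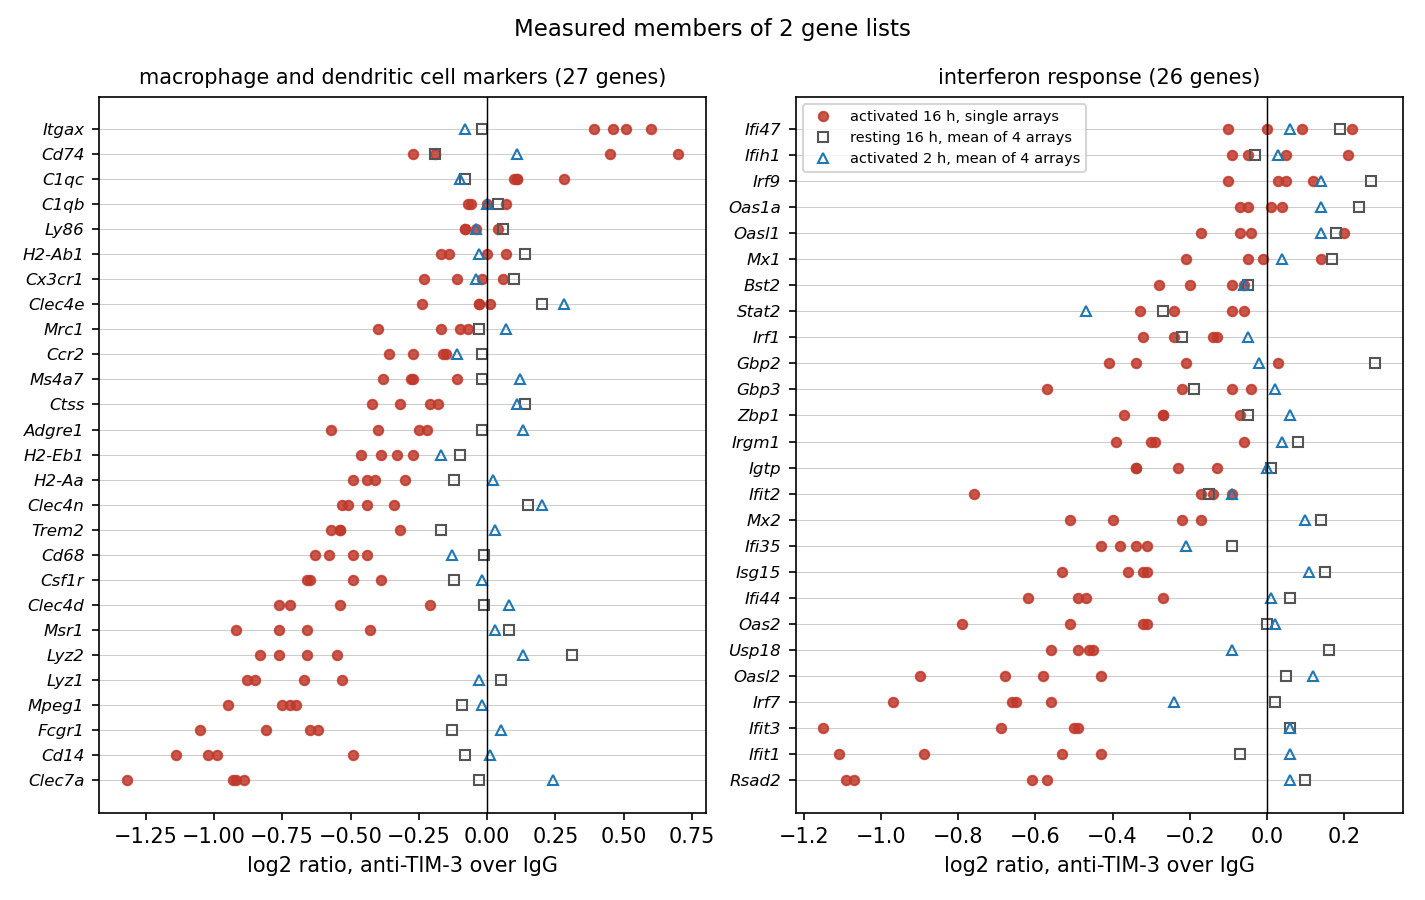
Log2 ratios of anti-TIM-3 over IgG (horizontal axes) for all 27 measured macrophage and dendritic cell markers and 26 of the 27 measured interferon response genes. Red points are the 4 arrays of activated cells at 16 h, grey squares are means of resting cells at 16 h and blue triangles means of activated cells at 2 h, over 4 arrays each. The lower genes of both panels lie left of 0 on all 4 arrays. List medians of the comparison groups were near 0 (macrophage -0.02 in resting cells and 0.02 at 2 h, interferon 0.05 and 0.03). Means of single genes lay further off, such as Lyz2, above 0 in resting cells.

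Genes of the cell cycle rose in activated cells at 16 h. Of 29 DNA replication genes, 25 rose and 0 fell (median 0.30), and of 29 mitosis genes, 18 rose and 0 fell (median 0.19), where 16.9% of all genes rose. The changes were modest: when a log2 change above 0.2 was required, 9 replication genes and 3 mitosis genes rose. Rrm2, a subunit of ribonucleotide reductase, which makes DNA precursors, had ratios of 0.57, 0.56, 0.36 and 0.42 (1.39-fold, limma adjusted p = 3.32e-07). Mcm4, a subunit of the replication helicase, had ratios of 0.38, 0.41, 0.48 and 0.50 (1.36-fold, limma adjusted p = 4.08e-07). The thymidine kinase gene Tk1 averaged 0.46 and Ccne2, a cyclin of S phase entry, 0.45. Pcna, the polymerase clamp, averaged 0.50, but its ratio was 0.45 in resting cells and 0.43 at 2 h. E2f1, a transcription factor of S phase genes, likewise averaged 0.49 here and 0.45 in resting cells.

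Among mitosis genes, the proliferation marker Mki67 had ratios of 0.30, 0.28, 0.39 and 0.35 (1.26-fold, limma adjusted p = 0.00252). The checkpoint kinase gene Bub1 averaged 0.35, Aurkb 0.34 and the spindle motor gene Kif11 0.45. At 2 h both lists had stood on the other side of 0, with medians of -0.12 for replication and -0.17 for mitosis, and both medians were 0.05 in resting cells at 16 h. Of 29 replication genes, 15 had a higher ratio than in resting cells and 25 a higher one than at 2 h, with 0 lower in either. For mitosis these counts were 6 and 24, again with 0 lower. Within slides the median difference of replication genes was 0.25 on each slide to resting cells and 0.31 to 2 h.

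Inhibitors of the cycle rose in part as well. Cdkn2b, a CDK inhibitor, averaged 0.55 and Cdkn2a 0.31, the second of which did not pass without the first array (0.19, adjusted p = 0.127). Of 18 G1 cyclins and inhibitors, 6 rose and 6 fell, against 10 higher and 3 lower with centring.

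**Figure D4:**
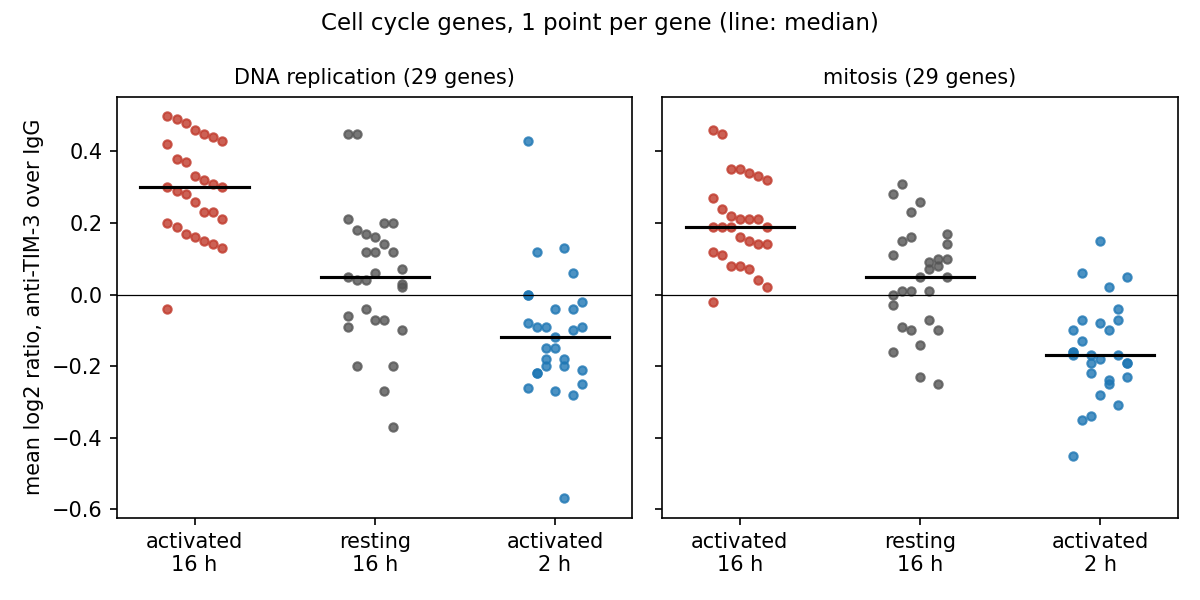
Mean log2 ratio of anti-TIM-3 over IgG (vertical axis) of 29 DNA replication and 29 mitosis genes, 1 point per gene, in 3 groups, which from left to right are activated for 16 h, resting for 16 h and activated for 2 h. Black lines are medians, which for replication are 0.30, 0.05 and -0.12 in that order and for mitosis 0.19, 0.05 and -0.17.

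Cytokine genes responded less to anti-TIM-3 at 16 h than at 2 h. Of 28 measured, 11 rose and 6 fell at 16 h, with a median of 0.08. With the ratios centred on the median of the genes tested, 4 were higher and 16 lower (median -0.16). At 2 h the median had been 0.82, and 21 of the 28 had a lower ratio at 16 h than at 2 h, with 0 higher. Csf2, which encodes GM-CSF, had ratios of 0.46, 0.34, 0.14 and 0.28 at 16 h (limma adjusted p = 0.000294), against 3.20 to 3.51 at 2 h. At 16 h the IgG signal of Csf2 was well above background on 2 of 4 arrays. With centring the 16 h value of Csf2 was -0.11. The difference between the times was -3.02 (SE 0.07, limma adjusted p = 1.01e-13). Il6 remained higher with anti-TIM-3 at 16 h, with ratios of 0.46, 0.46, 0.32 and 0.53 (1.36-fold, limma adjusted p = 2.95e-05), against 2.53 to 3.00 at 2 h.

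Tnf and Csf1 had opposite signs at the 2 times. Tnf, an inflammatory cytokine that mast cells also store, had ratios of -0.52, -0.56, -0.46 and -0.56 at 16 h (1.44-fold lower, limma adjusted p = 1.08e-05), against 2.27 to 2.62 at 2 h. The difference of Tnf between the times was -2.96 (SE 0.09, limma adjusted p = 8.53e-13), and -2.91 within the slide that holds both. Csf1, the growth factor of macrophages, had ratios of -0.60, -0.57, -0.39 and -0.58 at 16 h (1.45-fold lower, limma adjusted p = 1.57e-06), against 0.80 to 0.99 at 2 h. Ltb, the membrane partner of lymphotoxin, averaged -0.55 at 16 h and 0.07 at 2 h.

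Il1b, the gene of the inflammatory cytokine IL-1 beta, was the cytokine gene with the highest ratio at 16 h on the loess-normalised values. It had ratios of 0.79, 1.10, 0.65 and 0.79 (1.78-fold, limma adjusted p = 2.53e-08), against means of 0.01 in resting cells (limma adjusted p of the difference 5.84e-06) and 0.64 at 2 h (0.141). Il9, a growth factor for mast cells and T cells, was called higher, with ratios of 0.70, 0.68, 0.30 and 0.25. Its IgG signal was not well above background on any of the 4 arrays, and on the loess-normalised values alone the rise was at least 1.39-fold. Its value depended on the processing: -0.01 with centring, 1.01 with a smaller background offset and 2.80 with Agilent's processed signals.

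Of 20 chemokine genes measured, 11 rose and 4 fell at 16 h (median 0.16), and 9 had a lower ratio at 16 h than at 2 h. With centring 9 were higher and 8 lower, and as few as 4 rose with slide as a block, without the first or the second array, or when a change above 0.2 was required. Ccl4 and Ccl3 belonged to those with a far lower ratio at 16 h. Ccl4, which attracts monocytes and lymphocytes, had ratios of 0.06, 0.12, -0.43 and 0.08 at 16 h (limma adjusted p = 0.834), against 3.13 to 3.58 at 2 h. The difference of Ccl4 was -3.42 (SE 0.17, limma adjusted p = 4.46e-10). The related chemokine gene Ccl3 averaged 0.21 at 16 h (limma adjusted p = 0.0309) and 2.68 at 2 h. The 16 h value is a call that was lost without replicate 1, 2 or 4 (adjusted p = 0.0786, 0.134 and 0.0931). Cx3cl1, the membrane-bound chemokine fractalkine, averaged -0.37 at 16 h and -0.76 at 2 h. Ccl6 averaged -0.34 at 16 h and 0.00 with centring.

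Immediate early genes encode transcription factors and feedback regulators induced within minutes of a signal. At 16 h, 14 of 31 fell and 3 rose (median -0.11), or 12 and 8 with centring (median -0.04), and at 2 h their median had been 0.52. The ratio was lower at 16 h than at 2 h in 24 and higher in 0, and lower than in resting cells in 9 and higher in 2. Egr3 had ratios of -0.69, -0.64, -0.82 and -0.80 at 16 h (1.67-fold lower, limma adjusted p = 1.06e-05), against 2.07 to 2.60 at 2 h. The orphan nuclear receptor gene Nr4a1 had ratios of -0.55, -0.26, -0.60 and -0.39 at 16 h (limma adjusted p = 8.39e-05), against 2.58 to 3.05 at 2 h. Egr1 averaged -0.65 at 16 h (n = 3, limma adjusted p = 0.000393) and 1.30 at 2 h. These 3 genes thus had opposite signs at the 2 times. Ier2 averaged -0.70 at 16 h, 0.22 in resting cells and -0.02 at 2 h.

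Dusp4 and Egr2 were among the 3 early genes that rose. Dusp4, which switches off MAP kinases in the nucleus, had ratios of 0.76, 0.93, 0.70 and 0.86 (1.76-fold, limma adjusted p = 1.85e-05) and a mean of 0.71 at 2 h. Egr2 averaged 0.45, carried by the second array at 0.85 against 0.32 to 0.33 on the others. Dusp10, a phosphatase of stress kinases counted with the feedback regulators, averaged 0.73, whereas Dusp6, a phosphatase of ERK, averaged -0.57 (-0.16 with centring). The EGR letters GCGGGGGC stood in 8 of 24 early gene promoters (33.3%), against 4.81% of all promoters. These 24 are all measured early genes with a window, whichever way they changed. The letters are only G and C, and the base content of these promoters was not compared with that of all promoters.

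**Figure D5:**
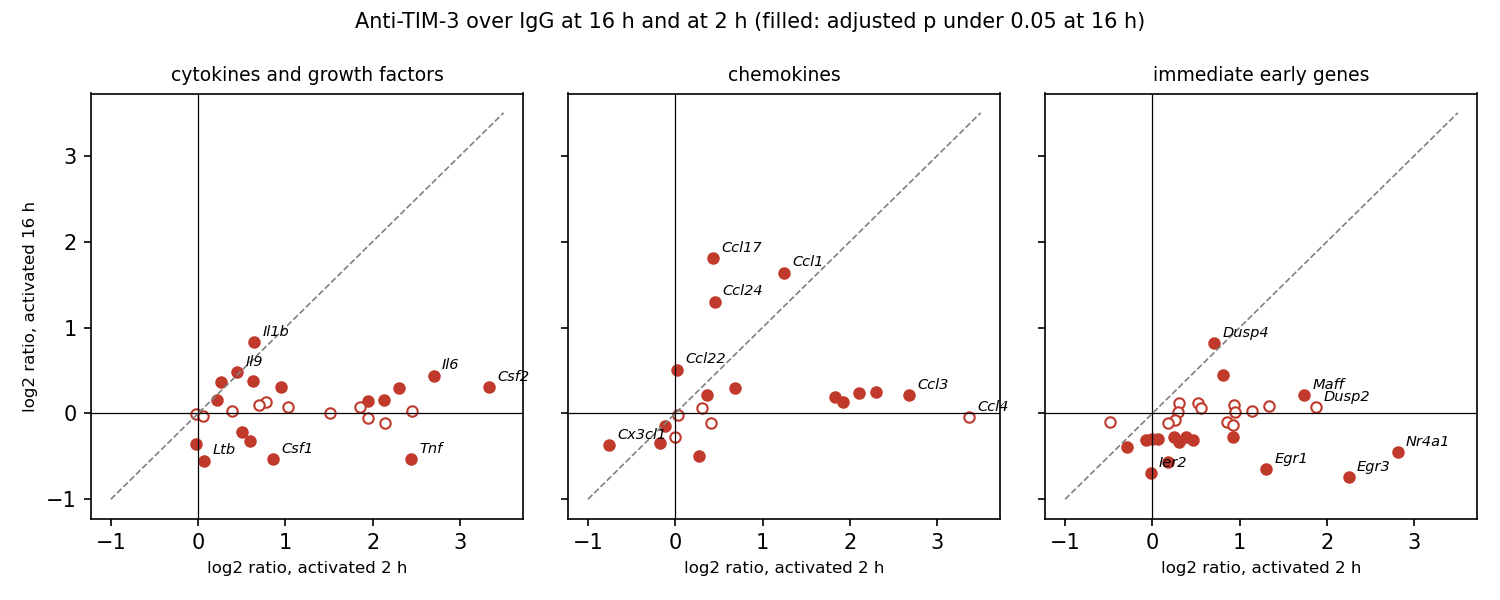
Mean log2 ratio of anti-TIM-3 over IgG in activated cells at 16 h (vertical axis) and at 2 h (horizontal axis) for cytokines, chemokines and immediate early genes, 1 point per gene, filled where the 16 h value was called. The dashed line marks equal ratios. Csf2, Ccl4 and Nr4a1 lie far to the right and near or below 0 at 16 h, while Ccl17, Ccl1 and Ccl24 lie above the line.

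Peptides other than Penk were among the rises. Of 13 neuropeptides and peptide hormones measured, 6 rose and 1 fell (median 0.10, and 4 and 7 with centring, median -0.19). Edn1, the precursor of the vessel-constricting peptide endothelin 1, had ratios of 1.22, 0.74, 0.85 and 1.33 (2.05-fold, limma adjusted p = 4.59e-08), below its mean of 1.70 at 2 h (difference adjusted p = 0.000365). Calca, which encodes calcitonin and the peptide CGRP, averaged 0.51, but 0.22 with Agilent's processed signals (adjusted p = 0.0905). Inhba, the subunit of activin A, had ratios of 1.06, 1.03, 0.90 and 1.06 (2.02-fold, limma adjusted p = 1.4e-08), and Fst, which neutralises activin, averaged 0.53. Inhba stood at 1.10 at 2 h and at 0.06 in resting cells.

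Surface proteins of activation rose in 8 of 18 and fell in 2 (median 0.07), where 16.9% of all genes rose and 13.2% fell. Tnfrsf9, the costimulatory receptor 4-1BB, had ratios of 1.03, 1.13, 0.88 and 0.87 (1.97-fold, limma adjusted p = 1.1e-09), against means of 0.04 in resting cells and 0.35 at 2 h. A dim second probe of Tnfrsf9 gave -0.04. Crtam, an adhesion receptor of activated lymphocytes, averaged 0.63, and Tnfsf4, the ligand OX40L, 0.45. Integrin genes moved both ways, with 4 of 15 higher and 5 lower. Itgb3, the beta 3 chain of the vitronectin receptor, had ratios of 0.85, 0.64, 0.65 and 0.72 (1.64-fold, limma adjusted p = 6.99e-09). Itgb5 averaged -0.57, and Itgb7, the chain of gut-homing integrins, -0.43 (0.11 with centring).

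In the extracellular matrix and plasminogen list 3 of 18 rose and 8 fell (median -0.12, and 6 and 7 with centring, median 0.01). The proteinase inhibitor gene Timp1 had ratios of 0.89, 0.87, 0.68 and 0.61 (1.7-fold, limma adjusted p = 4.47e-09) and the collagenase gene Mmp13 averaged 0.70. Adamts1, another matrix protease, averaged -0.40 and Plau, the urokinase, -0.33 (-0.07 with centring).

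The gene of the receptor itself did not pass the test. Havcr2 had ratios of 0.06, 0.15, -0.04 and 0.16 (mean 0.08, limma adjusted p = 0.292), with 0.46 under centring and 0.17 over the mean of its probes. Its ratio was 0.32 above that of resting cells (SE 0.08, limma adjusted p = 0.0194) and 0.51 lower than at 2 h (limma adjusted p = 0.000247). Lgals9, which encodes the ligand galectin 9, was uneven, with ratios of 0.74, -0.27, 0.67 and -0.08 (limma adjusted p = 0.153). Of 6 genes of the TIM family and its ligands, 1 rose: Bag6 (0.25), which did not pass without replicate 1 (adjusted p = 0.053), without replicate 3 (0.0873) or over the mean of its probes (0.29).

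Mast cell identity and mediators were measured in several lists. Kit, the SCF receptor, had ratios of 0.12, -0.23, 0.19 and -0.01 (limma adjusted p = 0.918, but 0.56 with centring). Of the FcεRI chains, the IgE-binding chain Fcer1a averaged 0.86 and the signal-amplifying chain Ms4a2 0.11 (limma adjusted p = 0.0265), the second lost with several settings. For Fcer1a the mean was 1.33 in resting cells and 0.08 at 2 h. The IL-33 receptor gene Il1rl1 averaged 0.89 here, 0.83 in resting cells and 0.72 at 2 h. Of its 2 other probes 1 gave 0.16 and 1 gave 0.04, and the mean over all 3 was 0.36. In all, 9 of 24 mast cell receptors rose and 4 fell, where 16.9% of all genes rose and 13.2% fell. The list median was 0.01, against 0.10 in resting cells and 0.06 at 2 h. Rasgrp4, an activator of Ras in mast cells, was among 6 of 31 FcεRI signalling genes that fell (-0.51, -0.45, -0.41 and -0.45, limma adjusted p = 7.54e-08), and 1 of the 31 rose. The balance of this list turned with centring, where 17 were higher and 5 lower. A second Rasgrp4 probe gave -0.13.

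Granule and mediator genes rose in 11 of 22 and fell in 6 (median 0.15, against 0.18 in resting cells and 0.20 at 2 h). Member means ran from -0.57 to 0.83. With Agilent's processed signals 7 rose and 6 fell, and with centring 14 were higher and 4 lower. Over all settings of the closing section 5 to 14 rose and 4 to 7 fell. Of the 22, 1 had a higher and 5 a lower ratio than in resting cells, and 0 a higher and 4 a lower one than at 2 h. Hdc, the enzyme that makes histamine, had ratios of 0.99, 0.87, 0.72 and 0.73 (1.77-fold, limma adjusted p = 8.86e-06), against means of 0.22 in resting cells (limma adjusted p of the difference 0.0108) and 0.90 at 2 h (0.793). Ctsg, the protease cathepsin G, fell by 0.51, with means of -0.06 in resting cells and 0.05 at 2 h. The chymase gene Cma1 averaged 0.67 (n = 3) here and 0.94 in resting cells, and the granule proteoglycan gene Srgn 0.60 here and 0.54 in resting cells. Of 15 eicosanoid genes 5 rose and 2 fell, where 16.9% of all genes rose and 13.2% fell. Ltc4s, which makes leukotriene C4, had ratios of 0.63, 0.45, 0.38 and 0.45 (1.39-fold, limma adjusted p = 9.76e-08), against 0.03 in resting cells and -0.01 at 2 h. Ptgs1, the constitutive prostaglandin synthase, had ratios of 0.46, 0.57, 0.43 and 0.42 (1.39-fold, limma adjusted p = 3.49e-08), against -0.07 in resting cells and 0.04 at 2 h. Alox5, the 5-lipoxygenase gene, averaged 0.71 (n = 3), but stood at 0.59 in resting cells, and its other probes gave 0.84 and 0.17.

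Genes of lipid synthesis rose in 11 of 26 and fell in 1, where 16.9% of all genes rose and 13.2% fell. The list median was 0.07, against 0.07 in resting cells and 0.04 at 2 h. Of the 26, 6 had a higher ratio than in resting cells and 9 a higher one than at 2 h, with 0 lower in either. The desaturase gene Scd1 had ratios of 0.69, 0.64, 0.60 and 0.61 (1.55-fold, limma adjusted p = 6.4e-10), against 0.13 in resting cells and 0.15 at 2 h, and the fatty acid synthase gene Fasn averaged 0.63. Ldha, the lactate dehydrogenase of glycolysis, averaged 0.81 here, 0.54 in resting cells and 0.42 at 2 h, and was higher than in either (limma adjusted p = 0.00821 and 0.000174). A second bright Ldha probe gave 0.07, 0.13, -0.11 and 0.05 (mean 0.03), and the mean of both probes was 0.42. Aldoa, a glycolytic aldolase, averaged 0.80, but 0.68 in resting cells and 1.08 at 2 h, and another probe gave 0.35.

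Stress, metabolic and signalling lists had calls in both directions, to be read against 16.9% of all genes higher and 13.2% lower. Of 23 ATF4 and unfolded protein response genes 10 rose and 2 fell, among them the chaperone genes Calr (0.49) and Hsp90b1 (0.40). Of 23 heat shock and oxidative stress genes 10 rose and 2 fell, with the superoxide dismutase gene Sod1 at 0.60 and the catalase gene Cat at -0.33. The median of this list was 0.15, against 0.09 in resting cells and 0.18 at 2 h. Of 26 respiratory chain genes 13 rose and 1 fell (median 0.12, against 0.09 in resting cells and 0.05 at 2 h). Cox6a1 averaged 0.76 here and 0.43 in resting cells. Of 25 Myc and ribosome biogenesis genes 7 rose and 3 fell. Of 24 glycolysis genes 6 rose and 2 fell, with Pfkfb3, a regulator of glycolytic flux, at -0.42. In iron handling 4 of 11 rose and 1 fell, led by the ferrireductase gene Steap3 at 0.56. The counts of this paragraph moved with the processing. Over all settings of the closing section 1 to 19 ATF4, 2 to 18 heat shock and 4 to 22 respiratory chain genes rose. For Myc genes it was 0 to 18, for glycolysis 3 to 15 and for iron handling 2 to 7. At most 5 members of any of these lists fell.

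Among signalling lists, 6 of 21 NF-kappaB subunits and targets rose and 3 fell, with the receptor gene Cd40 at 0.33. Of 17 STAT5 targets and SOCS genes 6 rose and 5 fell (13 higher and 1 lower with centring), the kinase genes Pim3 at 0.74 and Pim1 at -0.39 in opposite directions. Of 17 RGS and MAP kinase feedback regulators 4 rose and 2 fell. The activin and TGF-beta list had 5 of 21 higher and 2 lower. Of 23 BCL2 family and apoptosis genes 3 rose and 6 fell, but with centring 10 were higher and 4 lower. Among them the death receptor gene Fas averaged 0.43, and -0.01 on a dim second probe. In the sphingosine phosphate pathway 1 of 9 rose and 4 fell, against 3 higher and 2 lower with centring. The kinase gene Sphk1 averaged -0.26 at 16 h and 1.11 at 2 h, and its second array stood at -0.05.

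Secretion, cell structure and regulator lists had calls in both directions. Of 23 lysosomal genes 2 rose and 8 fell, with Ctsl the lowest, but with centring 14 were higher and 4 lower (median 0.19). Of 19 exocytosis SNAREs and regulators 3 rose and 8 fell, and with centring 6 were higher and 5 lower. The granule docking gene Rab27b averaged -0.26, and 0.00 with centring. Of 24 actin cytoskeleton genes 6 rose and 3 fell, against 18 higher and 1 lower with centring. With Agilent's processed signals 2 of them rose and 3 fell. The intermediate filament gene Vim, counted with them, averaged -0.51 here and 0.19 in resting cells. Among 18 mast cell transcription factors 4 rose and 4 fell, against 11 higher and 4 lower with centring. Of 10 inhibitory receptors 3 rose and 1 fell: Lag3, a T cell checkpoint receptor, averaged 0.30 and the checkpoint protein gene Vsir -0.55.

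Calls among markers of the remaining cell types depended on the scaling. Of 6 basophil markers 2 rose, of 4 eosinophil markers 1, of 10 T and NK cell markers 3, of 4 B cell markers 1 and of 5 fibroblast markers 1, with 0 lower in each of these lists. With centring, 10 of the 10 T and NK cell markers, 3 of the 4 eosinophil, 2 of the 4 B cell, 4 of the 5 fibroblast and 1 of the 6 basophil markers were lower, and 3 basophil and 1 fibroblast marker higher. The fibroblast and thymocyte surface gene Thy1 averaged 0.54. The T and NK cell markers Cd3d, Ncr1 and Prf1 were not well above background on any of the 4 IgG channels.

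Ribosomal protein genes had median ratios above 0 in the 3 groups compared here. Of 30, 26 rose and 0 fell (median 0.45), with Rplp1 at 1.14. The median was 0.50 in resting cells and 0.45 in activated cells at 2 h, and with Agilent's processed signals it was 0.17. In the differences, 1 of the 30 had a higher ratio than in resting cells and 3 a lower one, and 2 were higher than at 2 h with 0 lower. An effect of anti-TIM-3 common to these groups and a dye bias cannot be told apart here.

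Lars2, the mitochondrial leucyl-tRNA synthetase, had the lowest difference to resting cells of all genes called. Its ratio was 0.15, 0.40, -0.06 and 0.17 in activated cells, against 3.08, 2.73 and 0.66 on the 3 resting arrays that gave a value (difference -1.99, SE 0.52, limma adjusted p = 0.0263). The call was lost without activated replicate 1, 3 or 4, without resting replicate 1 or 3, with slide as a fixed block and with Agilent's processed signals.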

How the data were processed

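RNA of anti-TIM-3 cells (Cy5) and IgG cells (Cy3) was hybridised together on Agilent arrays by the Dual-Color Protocol 5.5, per the labels. The deposited scanner files hold mean and background intensity of each spot from Agilent Feature Extraction 9.1.3.1, per the file headers (version 9 in the submitters' processing notes). The authors' value table holds log10 ratios equal to those of the scanner files, with column medians of 0, and was not used as the main measure.

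Intensities were background-corrected (normexp, offset 50) and loess-normalised within arrays in limma 3.58.1 under R 4.3.3, with control and outlier spots at weight 0. Repeated spots were averaged. A probe was kept where, in some group, 1 or both channels were flagged well above background on 3 or more of the 4 arrays, and each gene was read from its brightest kept probe (25420 probes, 17101 genes; 5874 genes had other kept probes). Channel levels were Aquantile-normalised and are not compared between genes. One linear model with 4 group means covered all 16 arrays, with moderated statistics and Benjamini-Hochberg adjustment over all genes. Of 68404 values on the 4 arrays 162 were missing, and n is given where a gene lacks one.

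Named genes are the 15 largest rises and 15 largest falls that passed with the same sign on every array, up to 6 such members of each of 44 lists (35 pathway, 9 marker), Havcr2, Lgals9, Kit, Fcer1a and Ms4a2, and the 6 largest differences each way per comparison, without provisional symbols. Genes outside this rule that are named as not measured or not above background were chosen after their values were seen. The members and lists were chosen with earlier results of these data known. Each slide was scanned once and holds several groups, so within-slide differences are given. Same-numbered replicates are not paired by the labels. The steps were tested on simulated data. Figures used matplotlib 3.10.9 under Python 3.11.15. Some genes are not reported here. Alternatives are given in the closing section.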

Additional observations from a re-analysis of the deposited data

Results flagged for a closer look

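The antibody's effect differed between groups in 1461 genes for activated against resting cells at 16 h and in 2938 genes for activated cells at 16 h against 2 h, by limma's test of the difference. Both use the same 4 arrays. Against resting cells the largest positive differences were Penk 2.56, Plet1 2.45, Ccdc184 2.12, Igfbp5 1.82, Ccl17 1.77 and Prss12 1.54. The most negative were Lars2 -1.99, Hp -1.16, Tgfbi -1.15, Lyz2 -1.01, Clec7a -0.98 and Emp1 -0.93. Against 2 h the largest positive differences were Plet1 2.65, Ccdc184 2.06, Igfbp5 1.93, Penk 1.53, Prss12 1.48 and Ccl17 1.38. The most negative were Ccl4 -3.42, Nr4a1 -3.26, Csf2 -3.02, Egr3 -2.99, Tnf -2.96 and Ccl3 -2.47.

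Of 244 named genes, those with a value on all 4 arrays were examined, a number not counted here. In 18 of those examined 1 of the 4 arrays lay far from the other 3, where chance gives about 1 in 20 groups. By array there were 7 on the first, 6 on the second, 5 on the third and 0 on the fourth. On the first array these were Clec7a at -1.32, Rnf150 at -1.07, Nmb at -0.25, Pirb at 0.36, Tnfsf8 at 0.76, Sgpl1 at -0.42 and Cd79b at 0.40. On the second array they were Plet1 at 1.82, Ccl24 at 2.05, Egr2 at 0.85, Sqstm1 at 0.48, Adam8 at -0.47 and Sphk1 at -0.05. On the third array they were Csf1 at -0.39, Txn1 at 0.45, Cox6a1 at 0.62, Dusp10 at 0.50 and Ccl4 at -0.43. Each value is a log2 ratio of anti-TIM-3 over IgG.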

How the results depend on the processing

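The counts 5152 (anti-TIM-3 against IgG), 1461 (against resting cells) and 2938 (against 2 h) moved by more than 1.5 times under these settings, and the cause was not tested. With ratios centred on the median of the genes tested in place of loess, 12596 genes were called (6065 higher, 6531 lower), and 5594 in the difference to 2 h, where 32.2% were higher in place of 53.2%. When a log2 change above 0.2 was required, 699, 183 and 601 genes passed, and 39.9% of the last were higher. Without the 3 arrays of narrow spread, chosen after seeing the data, 2721 genes differed from resting cells. These were replicate 4 of resting cells at 2 h and replicates 2 and 4 of resting cells at 16 h. Leaving out 1 array gave 3531 to 4349, 862 to 1689 and 2216 to 2706 genes. The low counts against resting cells came without activated replicate 1 (862) and resting replicate 1 or 3 (909 and 929). Centred over all spots, the median of the genes tested was 0.39, and 88.9% of 13581 calls were higher. The labels give groups the same replicate numbers but do not pair them. After each group's mean ratio was subtracted per gene, correlations of same-numbered arrays ran from -0.45 to 0.64 over the 4 groups. For pairs with an array of activated cells at 16 h they ran from -0.38 to 0.47. With a replicate block the counts were 5517, 1868 and 3300, and of the named genes Gnl3 lost its call. The 15 largest rises and the 15 largest falls passed against a ratio of 0 under all 16 alternatives. In the tests of a difference, Rnf150 passed under 0 of 20 alternatives against resting cells and 18 of 20 against 2 h. Ccl1 passed under 20 of 20 against resting cells and 3 of 20 against 2 h. Of the 246 named genes, centring turned the sign of 26: Adam8 0.05, Asah1 0.02, Bbc3 0.09, Birc3 0.03, Ccnd2 0.11, Ccr3 -0.08, Cd79b 0, Csf2 -0.11, Dok1 0.04, Gadd45g 0.04, Gp1ba 0.19, Grb2 0.23, Hpgds 0.01, Il9 -0.01, Itgb7 0.11, Lck -0.16, Ncr1 -0.29, Nfkbie 0.07, Nkg7 -0.13, Nmb 0.03, Prkcb 0.19, Serpine2 -0.02, Sgpl1 0.05, Snap23 0.06, Srebf2 0.09 and Tgfbr2 0.09. Of these 26, 20 no longer passed and 6 passed the other way, and a further 21 calls were lost with the sign kept. Requiring a change above 0.2 lost 111 calls, Agilent's processed signals 17, leaving out 1 array 9 to 18, and slide as a fixed block, chosen after seeing the data, 10. The mean over a gene's probes turned 2, Cd300lf (0) and Vamp2 (0.03). Of 104 named genes with other probes, 25 had a probe of the other sign. The mean over probes moved others by more than 1.5 times, among them Cflar (-0.05, lost), E2f1 (0.21), Egr3 (-0.44), Kif11 (0.23), Sod1 (0.29), Timp1 (0.41) and Pfkfb3 (-0.18).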
